A study of Mus musculus with 11 samples.

Results

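The peaks given to 9 mouse genes that regulate RNA and chromatin in stem and progenitor cells were examined: Lin28a, Lin28b, Hmga1, Hmga2, Igf2bp1, Igf2bp2, Igf2bp3, Msi1 and Msi2. They are all peaks whose nearest start site, by gene identifier in the authors' annotation, belongs to one of these genes. There were 53 such peaks among 94410 in all: 11 for Hmga2, 10 for Igf2bp2, 9 for Igf2bp3, 6 each for Lin28a and Msi2, 4 each for Hmga1 and Msi1, 2 for Lin28b and 1 for Igf2bp1. Open chromatin was mapped by ATAC-seq, which tags accessible DNA with sequencing adapters through a transposase. The cells were haematopoietic stem cells (HSCs) from bone marrow of mice at steady state.

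All mice were Gfplc3/Gfplc3, that is, homozygous for a reporter of the autophagosome protein LC3 fused to GFP, so the young mice carried it too. The labels give 3 libraries of old AThi HSCs (autophagy high, GFP low), 3 of old ATlo HSCs (autophagy low, GFP high) paired with them as O1 to O3, and 5 of young HSCs, which were not fractionated. Ages, sexes and the number of animals per library are not in the labels, so the p-values cover the spread between libraries, which may be technical. Isolation and transposition took place on 2 days, and the day of each library is not given, so day, sort and age cannot be told apart in the comparisons with young HSCs. Each old fraction was compared with young HSCs, to ask what differed with age, and AThi with ATlo HSCs, to ask what differed with autophagy. Both comparisons with young HSCs share the young libraries.

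LIN28 proteins bind the precursors of let-7 microRNAs and block their maturation, and let-7 microRNAs repress Hmga2, Igf2bp1, Igf2bp2, Igf2bp3 and Lin28b itself, among others. In mice Lin28b is active in fetal HSCs and gives way to let-7 in the adult, and Hmga2, a target in the same pathway, supports the self-renewal of fetal HSCs. HMGA proteins bend AT-rich DNA, IGF2BP proteins stabilise mRNAs that carry N6-methyladenosine, and Musashi proteins control translation of their target mRNAs, with Msi2 the member that maintains adult HSCs.

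Sequences are shown for the promoters on which the results turn, those of Hmga2 and Igf2bp2, whose start-site peaks were higher in old AThi HSCs, and those of Hmga1 and Msi2, the most open promoters of the group. Each run holds the 250 bases before the start site, 5′ to 3′, from RefSeq (GRCm38.p6), with CpG dinucleotides in capitals. Of the 9 genes, 7 matched an entry; Msi1 and Igf2bp1 had none.
Hmga2, chr10:120476470-120476719, minus strand: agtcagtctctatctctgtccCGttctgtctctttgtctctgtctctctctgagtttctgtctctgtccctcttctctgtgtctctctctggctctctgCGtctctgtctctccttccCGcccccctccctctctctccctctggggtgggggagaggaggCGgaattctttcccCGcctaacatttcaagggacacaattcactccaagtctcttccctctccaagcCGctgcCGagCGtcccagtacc
Igf2bp2, chr16:22163300-22163549, minus strand: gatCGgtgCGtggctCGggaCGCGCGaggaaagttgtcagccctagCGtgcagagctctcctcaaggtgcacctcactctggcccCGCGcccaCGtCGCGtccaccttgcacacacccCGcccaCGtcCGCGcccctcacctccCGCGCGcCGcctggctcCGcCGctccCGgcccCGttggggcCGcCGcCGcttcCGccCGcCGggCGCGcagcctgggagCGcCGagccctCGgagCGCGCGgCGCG
Hmga1, chr17:27556324-27556573, plus strand: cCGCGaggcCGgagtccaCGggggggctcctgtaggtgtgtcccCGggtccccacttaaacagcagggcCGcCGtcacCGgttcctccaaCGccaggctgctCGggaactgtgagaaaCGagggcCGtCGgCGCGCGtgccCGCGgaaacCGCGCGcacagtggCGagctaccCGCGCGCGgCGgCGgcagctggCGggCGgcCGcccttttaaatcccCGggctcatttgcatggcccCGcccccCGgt
Msi2, chr11:88718278-88718527, minus strand: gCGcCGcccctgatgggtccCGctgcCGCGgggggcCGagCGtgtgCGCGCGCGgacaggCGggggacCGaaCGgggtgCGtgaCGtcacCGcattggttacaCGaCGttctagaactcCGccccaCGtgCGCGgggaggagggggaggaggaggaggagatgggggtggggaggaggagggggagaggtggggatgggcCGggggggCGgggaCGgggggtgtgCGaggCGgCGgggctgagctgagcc

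CpG dinucleotides numbered 40 in the Igf2bp2 promoter, 34 in Hmga1, 29 in Msi2 and 8 in Hmga2, against a median of 6 over 27025 RefSeq promoters. The C+G content was 77.2% in Igf2bp2, 72.8% in Hmga1, 75.6% in Msi2 and 56.4% in Hmga2, against a median of 52.0%. The Hmga2 promoter is thus the poorest in CpG of the 4. On either strand, the ETS core GGAA occurred 4 times in Hmga2, 3 times in Hmga1, 2 times in Igf2bp2 and 0 times in Msi2, and at least once in 93.4% of all promoters. The E-box CANNTG, which reads the same on both strands, occurred 2 times in Hmga1, 1 time in Msi2 and 0 times in Hmga2 and Igf2bp2, and in 66.0% of all promoters. The GATA motif AGATAA occurred 2 times in the Lin28b promoter, in no other of the 7, and in 10.3% of all promoters. Neither the RUNX motif TGTGGT, the AP-1 motif TGANTCA nor the TATA box TATAAA was in any of the 7 windows, and 14.2%, 6.87% and 13.0% of all promoters hold them. These are matches of letters and not measured binding sites.

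The mature let-7 microRNAs share their seed, the bases 2 to 8 that pair with targets. All 11 genes of the let-7 list with an entry in RefSeq carry GAGGUAG there. The 3 to which peaks that passed the test below were given are shown with the seed in capitals.
let-7i: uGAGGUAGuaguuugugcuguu
let-7a: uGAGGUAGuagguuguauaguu
let-7f: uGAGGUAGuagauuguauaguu

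The deposited tables hold 1 log2 change per peak and comparison and no value per library, so values of single libraries cannot be given. For each group a level was derived instead, the mean normalised count that follows from the authors' mean over libraries and their log2 changes. The deposited standard errors (SEs) match a fit of 10 libraries, 4 of them young, rather than the 11 of the labels: the fit gives the variances to a median of 0.0861% with 4 young libraries and 1.47% with 5. Which young library is left out is not known, and fits with a term for the day were not examined. The same fit gives about 3910000 reads in peaks per AThi library, 4670000 per ATlo library and 10500000 per young library. This depth gap moved with age, and its part in the results was not tested. In bulk chromatin, a larger share of cells with an open site and a more open site in each cell cannot be told apart.

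Promoters of HSC genes were open in these data: all 9 HSC markers (Procr, Hlf, Mecom and others) had a promoter peak, with levels of 28.6 to 414. Of the markers of other cells, a promoter peak was found for 1 of 4 T cell genes (level 6.55), 3 of 4 B cell genes (13.7 to 56.0), 3 of 4 granulocyte or monocyte genes (26.1 to 304), 3 of 4 erythroid genes (74.7 to 229) and 5 of 5 endothelial or stromal genes (28.2 to 130). Cd3e, Cd3g, Cd8a, Cd79a, Ly6g and Hba-a1 had none. An open promoter is not expression, and the part of other cells in the results was not tested.

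The 9 genes did not move as a block. A minority of their peaks, most of them at promoters, was more open in old HSCs, led by Msi1, Lin28a, Hmga2, an Igf2bp2 promoter and sites far from Lin28b and within Msi2, and the strongest promoter, that of Hmga1, was less open in old ATlo HSCs. In old AThi HSCs against young HSCs, 8 of 52 peaks with an adjusted p (15.4%) were higher at an adjusted p under 0.05 and 0 were lower in the authors' deposited table, against 7.57% higher and 2.74% lower of all 92579 peaks with one. At an unadjusted p under 0.05, 9 of 53 were higher and 1 was lower, against 12.9% higher and 9.5% lower of all peaks. In old ATlo HSCs, 6 of 52 (11.5%) were higher and 2 (3.85%) lower in the authors' deposited table, against a background of 6.88% higher and 2.54% lower. Over both directions the background was 10.3% in AThi and 9.42% in ATlo HSCs, and 8 of 52 member peaks (15.4%) passed in each. With 52 peaks, that is an excess of a few peaks over the background.

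More peaks leaned down than up: 31 of 53 had a negative change in AThi HSCs, of which 0 passed the test, and 33 in ATlo HSCs, of which 2 passed. The median log2 change of the member peaks was -0.13 in AThi and -0.22 in ATlo HSCs against young HSCs in the authors' deposited tables, while the medians of all peaks were -0.044 and -0.034. For the mean of both old fractions against young HSCs, computed from the same fit, 8 of 53 peaks were higher and 2 lower, against 10.1% higher, 6.18% lower and 16.2% either way of all 94410 peaks. The SE of this mean treats the AThi and ATlo libraries as independent, although the labels pair them as O1 to O3. Where paired libraries vary together that SE is too small, and this was not tested. Altogether 11 peaks in 7 genes passed the test in at least 1 comparison, which is 20.8% of the member peaks against 16.9% of all peaks. Of the 11, 5 passed in both comparisons with young HSCs, and the share of all peaks that did so was not computed. Igf2bp1 and Igf2bp3 had none.

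The direction of calls over all peaks depends on the scaling. With the authors' size factors, 73.4% of all calls in AThi and 73.0% in ATlo HSCs were higher than in young HSCs, and 61.9% for the mean of both. When the median of the 2289 strongest promoter peaks was moved to 0, a shift of 0.22 in AThi and 0.30 in ATlo HSCs on the log2 scale, these shares became 93.7%, 98.1% and 93.9%. Of the 52 member peaks with an adjusted p, 10 in AThi HSCs and 10 in ATlo HSCs were then higher, against 13.4% and 16.8% of all peaks. In ATlo HSCs 1 was lower, against 0.334% of all peaks.

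**Figure D1:**
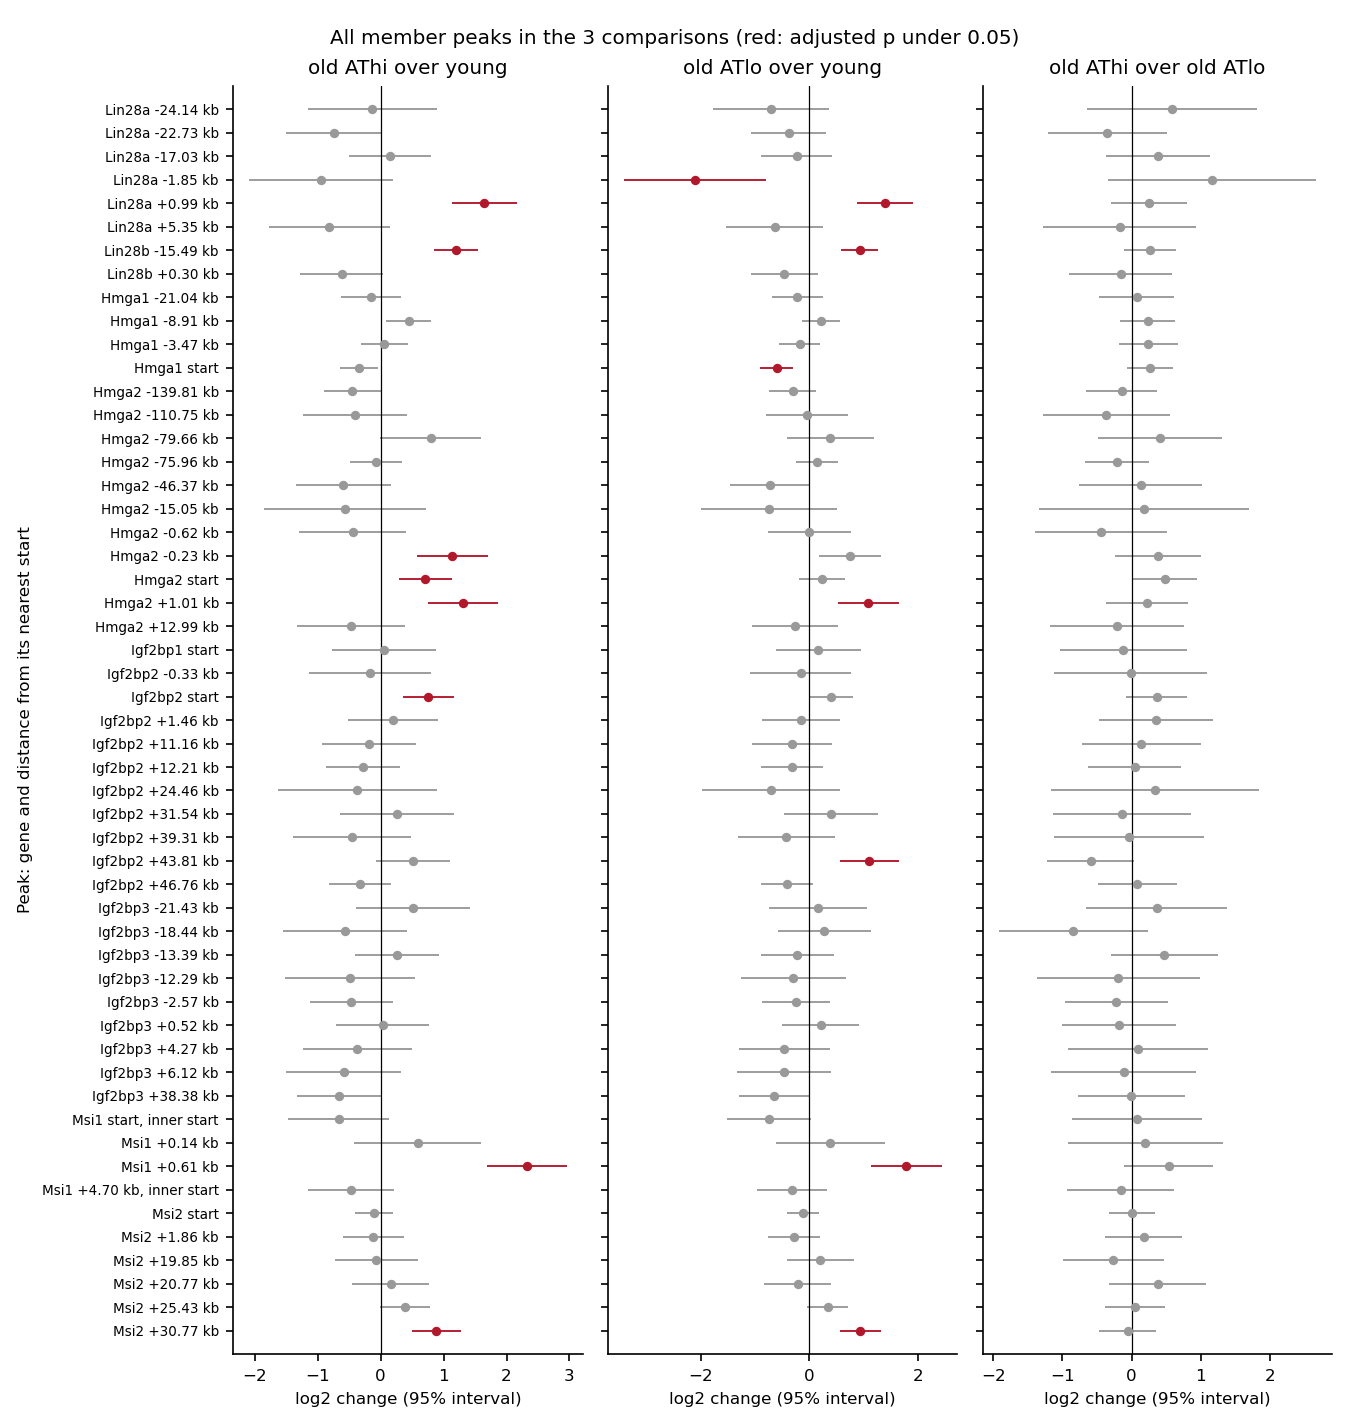
Log2 change of all 53 member peaks in old AThi over young, old ATlo over young and old AThi over old ATlo HSCs, with 95% intervals from the authors' SEs and peaks with an adjusted p under 0.05 in red. Red peaks of Msi1, Lin28a downstream of its start, Lin28b, Hmga2 and Msi2 lie right of 0 in both comparisons with young HSCs, the red Lin28a peak upstream and the red Hmga1 start peak lie left of 0 in ATlo HSCs, and no peak is red between the old fractions.

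Lin28a, whose protein blocks let-7 maturation, held the next largest rise after Msi1. Its peak 992 bases downstream of the start site (chr4:133744638-133745135 in mm39, annotated as promoter) had a level of 92.1 in AThi, 77.3 in ATlo and 29.5 in young HSCs. The intervals of both old fractions, from 59.2 upward, lie above that of young HSCs, which ends at 37.4. In the authors' deposited tables it rose by 1.64 on the log2 scale in AThi HSCs (SE 0.26, adjusted p = 4.6e-08) and by 1.39 in ATlo HSCs (SE 0.26, adjusted p = 9.4e-06). A weak peak 1855 bases upstream (chr4:133747982-133748251) went the other way, with levels of 7.80 in AThi, 3.47 in ATlo and 15.0 in young HSCs. In the authors' deposited tables it fell by 2.11 in ATlo HSCs (SE 0.67, adjusted p = 0.023), and the change of -0.94 in AThi HSCs did not pass (SE 0.58, adjusted p = 0.34). That peak rests on about 5.12 reads per AThi library, 2.80 per ATlo library and 25.8 per young library. The other 4 Lin28a peaks, 3 upstream at 17 to 24 kb and 1 in the gene, had changes that did not pass, of -0.82 to 0.15 in AThi HSCs.

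Lin28b, the paralogue that mouse fetal HSCs use, had 2 peaks, and its promoter was not the one that rose. The distal peak 15.5 kb upstream (chr10:45361783-45363152) had a level of 141 in AThi, 117 in ATlo and 61.5 in young HSCs, with old intervals that start at 97.3 and a young interval that ends at 71.8. It rose by 1.20 in AThi HSCs (SE 0.18, adjusted p = 1.93e-09) and by 0.93 in ATlo HSCs (SE 0.18, adjusted p = 1.14e-05) in the authors' deposited tables. The promoter peak (chr10:45345122-45346001) had a level of 23.7 in AThi, 26.4 in ATlo and 36.4 in young HSCs, and the intervals of the 3 groups overlap. Its changes of -0.62 and -0.46 in the authors' deposited tables did not pass (adjusted p = 0.261 and 0.421).

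**Figure D2:**
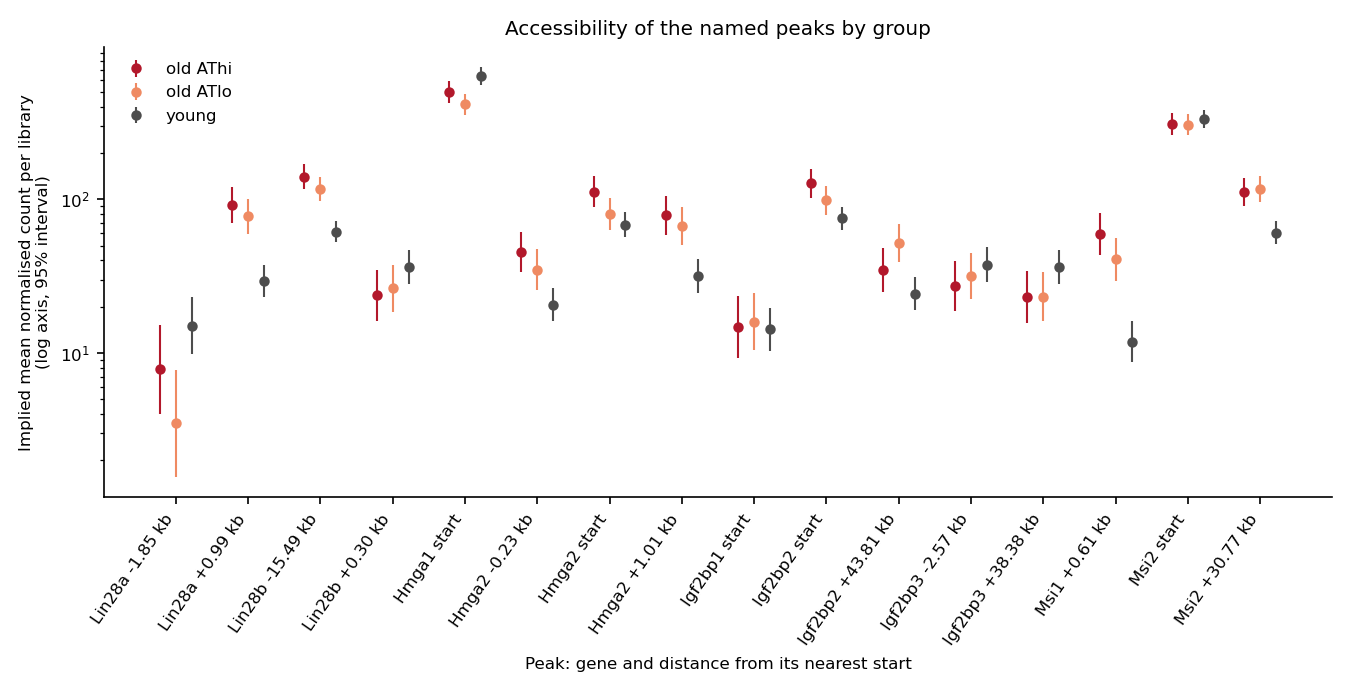
Derived mean normalised count per group for each named member peak, on a log axis, with old AThi, old ATlo and young HSCs from left to right and 95% intervals as bars. Levels at the Msi1, Lin28a and Lin28b peaks that rose are lowest in young HSCs, and the Hmga1 and Msi2 start sites are the highest of all in each group.

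Hmga2, an architectural chromatin protein and a let-7 target, showed its rises as a cluster around the start site. The start-site peak (chr10:120311594-120312451) had a level of 112 in AThi, 80.3 in ATlo and 68.5 in young HSCs. It rose by 0.71 in AThi HSCs (SE 0.22, adjusted p = 0.0143) by the authors' deposited table, and its change of 0.23 in ATlo HSCs did not pass (SE 0.22, adjusted p = 0.598). The AThi interval, 89.3 to 141, lies above that of young HSCs, which ends at 82.4, while the ATlo interval overlaps both. The peak 234 bases upstream (chr10:120312608-120312932) had a level of 45.4 in AThi, 34.7 in ATlo and 20.6 in young HSCs. In the authors' deposited tables it rose by 1.14 in AThi HSCs (SE 0.29, adjusted p = 0.00189), and the 0.75 of ATlo HSCs did not pass (SE 0.29, adjusted p = 0.0821).

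The largest rise at Hmga2 lay 1008 bases downstream (chr10:120310886-120311366), with a level of 78.5 in AThi, 67.1 in ATlo and 31.6 in young HSCs. Both old intervals lie above the young one, which ends at 40.6. The peak rose by 1.31 in AThi HSCs (SE 0.28, adjusted p = 0.000138) and by 1.09 in ATlo HSCs (SE 0.28, adjusted p = 0.00331) in the authors' deposited tables. Next to these, the weak promoter peak 624 bases upstream did not rise, with changes of -0.44 in AThi and -0.0018 in ATlo HSCs in the same tables. It and the other remaining Hmga2 peaks, 8 in all, did not pass. These 8 include 6 peaks from 15 to 140 kb upstream, with changes of -0.59 to 0.80 in AThi HSCs. The weakest of them, at 15 kb, has no adjusted p in the authors' deposited tables for the comparisons with young HSCs.

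Hmga1, the paralogue expressed widely in proliferating cells, had the strongest promoter of the 9 genes, and that promoter fell in ATlo HSCs. The start-site peak (chr17:27773951-27776002) had a level of 501 in AThi, 416 in ATlo and 633 in young HSCs, and the ATlo interval, 354 to 488, lies below the young one, 555 to 722. It fell by 0.61 in ATlo HSCs (SE 0.15, adjusted p = 0.00215) by the authors' deposited table, and the change of -0.34 in AThi HSCs did not pass (SE 0.15, adjusted p = 0.152). The strongest promoters as a class had a median of -0.30 in ATlo HSCs, and with that median moved to 0 the ATlo change was -0.30 (adjusted p = 0.173). The 3 upstream peaks of Hmga1, from 3.5 to 21 kb away, had changes of -0.15 to 0.45 in AThi HSCs that did not pass.

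Igf2bp2, a let-7 target that binds mRNAs of metabolism and growth, passed the test at its start site in AThi HSCs and at an intron site in ATlo HSCs. The start-site peak (chr16:21981165-21982287) had a level of 127 in AThi, 98.8 in ATlo and 75.0 in young HSCs. It rose by 0.76 in AThi HSCs (SE 0.21, adjusted p = 0.00457) by the authors' deposited table, and the 0.40 of ATlo HSCs did not pass (SE 0.21, adjusted p = 0.242). A peak in intron 2 (chr16:21937569-21938242) had a level of 34.6 in AThi, 52.2 in ATlo and 24.3 in young HSCs. There the rise by 1.10 in ATlo HSCs passed (SE 0.28, adjusted p = 0.00192) and the 0.51 of AThi HSCs did not (SE 0.30, adjusted p = 0.311), in the authors' deposited tables. Neither site differed past the threshold between the fractions themselves: the AThi against ATlo change was 0.36 (unadjusted p = 0.111) at the start site and -0.59 (unadjusted p = 0.0622) in intron 2, in the authors' deposited table. The other 8 Igf2bp2 peaks had changes of -0.46 to 0.26 in AThi HSCs and -0.71 to 0.40 in ATlo HSCs that did not pass.

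Igf2bp1 and Igf2bp3, whose proteins are best known from fetal tissue, had weakly open promoters and no peak that passed. The 1 Igf2bp1 peak, over its start site (chr11:95896311-95896836), had a level of 14.8 in AThi, 16.0 in ATlo and 14.3 in young HSCs, with changes of 0.049 and 0.17 in the authors' deposited tables. The 95% interval of the AThi change, -0.77 to 0.87, does not exclude changes as large as that of the Hmga2 start site. The strongest promoter peak of Igf2bp3 lies 2567 bases upstream of the start site (chr6:49194455-49195207). It had a level of 27.2 in AThi, 31.6 in ATlo and 37.6 in young HSCs, with overlapping intervals. Its changes were -0.47 and -0.25 in the authors' deposited tables, of which the ATlo one turns to 0.055 with the strongest promoters' median at 0. The promoter peak 522 bases downstream did not lean down. It had a level of 22.5 in AThi, 25.5 in ATlo and 22.0 in young HSCs. Its changes of 0.032 and 0.21 in the authors' deposited tables did not pass (adjusted p = 0.976 and 0.803). The Igf2bp3 peak of smallest p, in intron 2 (chr6:49152959-49153509), had a level of 23.1 in AThi, 23.2 in ATlo and 36.4 in young HSCs. Its changes of -0.66 and -0.65 in the authors' deposited tables did not pass (adjusted p = 0.233 and 0.22), nor did the mean of both (adjusted p = 0.0806).

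Msi1, the Musashi protein known mostly from neural and intestinal stem cells, held the largest rise of the 53 peaks. The peak 609 bases downstream of the gene's outer start site (chr5:115568343-115568592) had a level of 59.1 in AThi, 40.8 in ATlo and 11.8 in young HSCs. It rose by 2.32 in AThi HSCs (SE 0.32, adjusted p = 1.54e-10) and by 1.79 in ATlo HSCs (SE 0.33, adjusted p = 5.06e-06) in the authors' deposited tables, which is 5.01-fold and 3.45-fold. Its neighbour 141 bases downstream of the same start (chr5:115567875-115568266) had a level of 13.7 in AThi, 11.9 in ATlo and 9.10 in young HSCs, with changes of 0.59 and 0.39 in the authors' deposited tables that did not pass (adjusted p = 0.546 and 0.729). The other 2 Msi1 peaks belong to a transcript that starts 6.95 kb farther in. The peak over that inner start (chr5:115574411-115574847) had a level of 14.6 in AThi, 13.8 in ATlo and 23.1 in young HSCs, with changes of -0.67 and -0.75 in the authors' deposited tables that did not pass (adjusted p = 0.338 and 0.253), and the exon peak 4.70 kb beyond it had changes of -0.47 and -0.32 that did not pass.

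Msi2, which maintains adult HSCs, had a strong promoter whose changes did not pass the test. The start-site peak (chr11:88608582-88609988) had a level of 309 in AThi, 307 in ATlo and 333 in young HSCs. The changes of -0.11 (SE 0.16, adjusted p = 0.748) and -0.12 (SE 0.15, adjusted p = 0.722) in the authors' deposited tables did not pass, and they turn to 0.11 and 0.18 with the strongest promoters' median at 0. Their 95% intervals run from -0.41 to 0.20 in AThi and from -0.42 to 0.18 in ATlo HSCs. A peak 30.8 kb downstream, annotated as 3′ UTR (chr11:88577802-88578284), had a level of 112 in AThi, 116 in ATlo and 60.7 in young HSCs, with old intervals from 91.0 upward and a young interval that ends at 71.9. It rose by 0.89 in AThi HSCs (SE 0.20, adjusted p = 0.000253) and by 0.94 in ATlo HSCs (SE 0.19, adjusted p = 5.93e-05) in the authors' deposited tables. The other 4 Msi2 peaks had changes of -0.11 to 0.39 in AThi HSCs that did not pass.

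**Figure D3:**
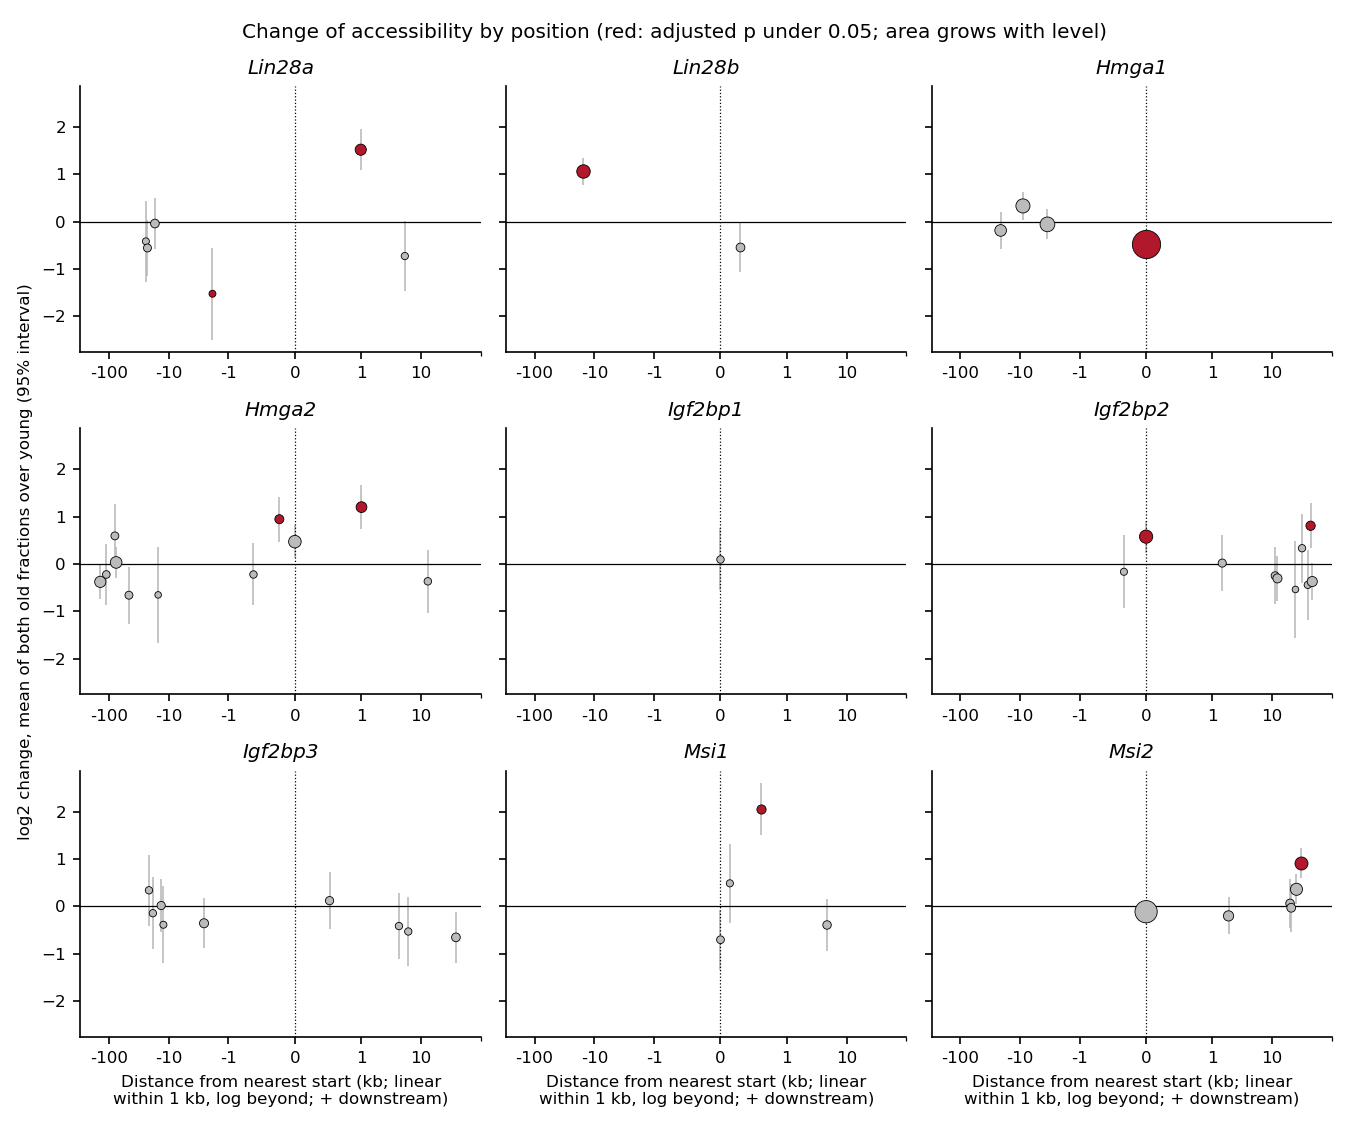
Log2 change of the mean of both old fractions over young HSCs, with 95% intervals, by distance in kb from the nearest annotated start site of the gene (linear within 1 kb, logarithmic beyond); Msi1 has an outer and an inner start, both drawn at 0. Symbol area grows with the mean level, and peaks with an adjusted p under 0.05 are red. Red symbols lie within 2 kb of a start site, apart from 1 each at Lin28b, Msi2 and Igf2bp2 farther away.

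By annotation, 8 of the 19 promoter peaks passed in at least 1 comparison, 1 of 15 intron peaks, 1 of 17 distal peaks, the 1 peak in a 3′ UTR and not the 1 exon peak. Of all peaks, 21.1% of promoter, 15.4% of intron, 15.3% of distal, 15.7% of 3′ UTR and 18.3% of exon peaks passed in at least 1 comparison. The members' shares were thus 42.1% against 21.1% at promoters, 6.67% against 15.4% in introns and 5.88% against 15.3% at distal sites, a description over few peaks. The 8 promoter peaks include 3 neighbouring peaks of Hmga2 and 2 of Lin28a that moved in opposite directions, so they are not 8 separate promoters. Peaks that passed were also the stronger ones, with a median level of 62.6 against 19.8 for the others. Weak peaks have wide intervals, so a missing call there does not show that a site was unaltered.

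The promoters of the 9 genes differed widely in openness per kilobase of peak. For each gene the promoter peak of highest mean level over libraries was taken. In young HSCs these peaks ran from Hmga1 (309 normalised counts per kb) and Msi2 (237) through Hmga2 (79.8), Igf2bp2 (66.8), Lin28a (59.2), Igf2bp3 (49.9), Msi1 (47.3) and Lin28b (41.3) to Igf2bp1 (27.1). For Igf2bp3 the peak taken lies 2567 bases upstream of the start site. For Msi1 the choice of peak rests on the old fractions. In young HSCs its inner-start peak was the stronger one, with a level of 23.1 against 11.8, or 52.8 per kb. The intervals of Hmga1 (from 270.4) and Msi2 (up to 270.03) all but touch, and both lie above those of the other 7. Each later neighbour in that order has an interval that overlaps the one before it. In AThi HSCs, Msi1 (237, interval 173 to 324) and Lin28a (185, interval 142 to 242) had intervals that overlap those of Hmga1 (244) and Msi2 (220), while Igf2bp3 (36.1), Igf2bp1 (28.0) and Lin28b (26.9) closed the order. Widths enter these values: the Msi1 and Lin28a peaks span 250 and 498 bases (levels 59.1 and 92.1), those of Hmga1 and Msi2 2052 and 1407 bases (levels 501 and 309). The Hmga2 peak 1008 bases downstream, which is not in this order, had 163 per kb in AThi HSCs against 131 at the start site. Among all promoter peaks, the Hmga1 and Msi2 start sites stood at the percentiles 97.7 and 89.3 by mean level, and those of Igf2bp2 and Hmga2 at 51.5 and 47.7.

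**Figure D4:**
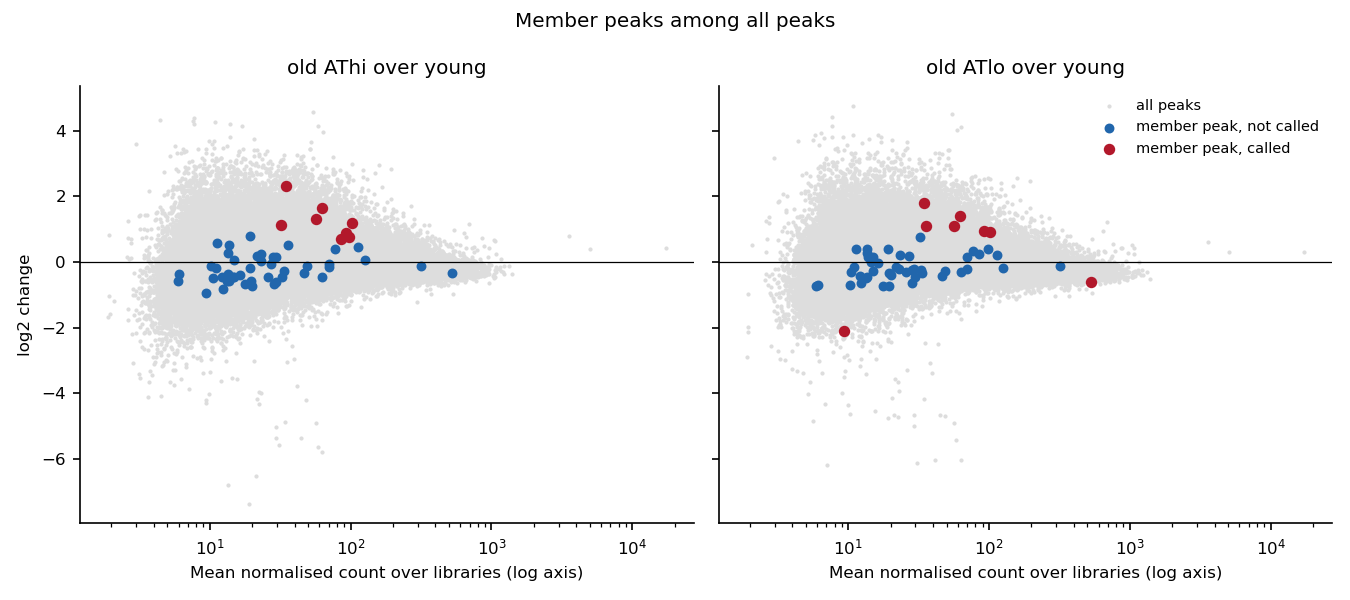
Log2 change by mean normalised count over libraries (log axis) for all peaks in grey and member peaks in blue, or red where they passed the test, in old AThi over young and old ATlo over young HSCs. The Msi1 and Lin28a peaks, at 2.32 and 1.64 in AThi HSCs, are the highest members, and the Hmga1 start site is the rightmost.

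Between old AThi and old ATlo HSCs no member peak passed the test, and neither did any of the 94410 peaks (0%) in the authors' deposited table. At an unadjusted p under 0.05, 1 of the 53 member peaks was higher in AThi and 0 were lower. Of all peaks, 687 (0.73%) were higher and 996 (1.05%) lower, 1.78% either way. The 1 member peak is the Hmga2 start site, with a change of 0.48 (95% interval 0.012 to 0.95, unadjusted p = 0.0444) by the authors' deposited table. Of the 53 peaks, 31 had a higher level in AThi HSCs. At the median peak the 95% interval reached 0.77 to either side on the log2 scale, so differences below that size would mostly miss even an unadjusted p under 0.05. Larger differences could also miss the adjusted threshold, as the smallest unadjusted Wald p of all peaks, 0.00019, did not pass. A rise that passed in 1 fraction alone, as at the start sites of Hmga2 and Igf2bp2, is therefore not shown to differ between the fractions.

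The nearest-start rule leaves out 51 peaks that lie inside these genes but nearer to the start of another, 28 of them in Msi2, 10 in Hmga2, 6 in Igf2bp2, 4 in Igf2bp3 and 1 each in Hmga1, Igf2bp1 and Lin28b. Of these, 4 were higher in AThi and 3 in ATlo HSCs, and 0 were lower in either, in the authors' deposited tables. The higher shares, 7.84% and 5.88%, are near the background of 7.57% and 6.88%, so the peaks described next are single sites. In Msi2, a peak in intron 5 (chr11:88522542-88523098) had a level of 164 in AThi, 141 in ATlo and 72.0 in young HSCs, and its changes of 1.19 and 0.97 in the authors' deposited tables passed. Another in intron 7 (chr11:88358607-88359098) had a level of 32.9 in AThi, 39.7 in ATlo and 12.6 in young HSCs, with changes of 1.39 and 1.66 in the authors' deposited tables that passed. The strongest of the 28, also in intron 5 (chr11:88489450-88490990), had a level of 279 in AThi, 266 in ATlo and 284 in young HSCs, with changes of -0.022 and -0.093 in the authors' deposited tables. In Igf2bp3, where no member peak passed, a peak in intron 10 (chr6:49073810-49074391) rose by 2.06 in AThi and 2.46 in ATlo HSCs in the authors' deposited tables. Its level was 26.0 in AThi, 34.3 in ATlo and 6.22 in young HSCs.

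Other genes of the same pathways were read from 6 lists with 71 genes, of which Myc, Tgfbr1 and Igf1r stand in 2 lists. Among 10 let-7 processing genes (49 peaks), 3 peaks were higher and 2 lower in AThi HSCs, and 1 higher and 3 lower in ATlo HSCs, in the authors' deposited tables. The promoters of Tut7 and Tut4, the enzymes that add uridine to let-7 precursors held by LIN28, had changes of -0.56 (adjusted p = 0.00415) and -0.40 (adjusted p = 0.076) in AThi HSCs and of -0.51 (adjusted p = 0.0105) and -0.54 (adjusted p = 0.00916) in ATlo HSCs, in the authors' deposited tables. Both are strong promoters, whose class as a whole lay below 0. Tut7 did not move 1 way throughout. A peak in its intron 6 rose by 0.93 in ATlo HSCs (adjusted p = 0.0269), and its change of 0.42 in AThi HSCs did not pass (adjusted p = 0.472), in the authors' deposited tables. Ago2, which loads mature microRNAs, rose by 0.75 in AThi HSCs at a peak in intron 1 (adjusted p = 0.0161) by the authors' deposited table.

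Peaks were found for 6 of 12 let-7 family microRNA genes (25 peaks), of which 1 was higher and 0 lower in AThi HSCs, and 2 higher and 1 lower in ATlo HSCs, in the authors' deposited tables. The higher shares were 4.0% in AThi and 8.0% in ATlo HSCs, near the background. The peak given to let-7i lies 72 kb from its start site, in an intron of Ppm1h by the RefSeq gene table, and rose by 1.15 in AThi HSCs (adjusted p = 1.26e-09) and by 1.08 in ATlo HSCs (adjusted p = 1.48e-08) in the authors' deposited tables. The peak given to let-7f-2, 5.4 kb upstream in an exon of Huwe1, had changes of 0.49 in AThi HSCs (adjusted p = 0.408) and 1.20 in ATlo HSCs (adjusted p = 0.00351) in the authors' deposited tables. The strong peak 7.2 kb upstream of let-7a-1 had changes of -0.33 (adjusted p = 0.136) and -0.51 (adjusted p = 0.00901) in the authors' deposited tables.

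Among 17 other let-7 target genes (141 peaks), 13 peaks were higher and 7 lower in AThi HSCs, and 13 higher and 7 lower in ATlo HSCs, in the authors' deposited tables. Tgfbr1, a TGF-beta receptor, rose by 2.40 and 1.85 at an intron 1 peak, and Zbtb16, a transcription factor, by 1.47 and 1.22 near its start site, in AThi and ATlo HSCs in the authors' deposited tables. Other peaks fell past the threshold in both fractions, by 1.08 and 0.69 in intron 3 of Arid3a and by 0.52 and 0.63 at the Ccnd2 promoter. A distal Tgfbr1 peak fell by 0.85 in AThi HSCs (adjusted p = 0.00634), and its change of -0.53 in ATlo HSCs did not pass, in the same tables. Among 10 Musashi targets and partners (99 peaks), 5 were higher and 4 lower in AThi HSCs, and 4 higher and 5 lower in ATlo HSCs, in the authors' deposited tables. Smad3, which carries TGF-beta signals, rose at a distal peak by 1.15 and 1.28, and Meis1, a Hox cofactor of HSCs, fell by 0.52 and 0.50 at a peak in intron 8, in AThi and ATlo HSCs in the authors' deposited tables.

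Among 15 genes of m6A reading and writing and of the Igf axis (94 peaks), 9 peaks were higher and 1 lower in AThi HSCs, and 11 higher and 4 lower in ATlo HSCs, in the authors' deposited tables. The promoter of Igf2, the growth factor whose mRNA gave the Igf2bp family its name, rose by 1.13 in AThi HSCs (adjusted p = 1.13e-06) and by 0.82 in ATlo HSCs (adjusted p = 0.00144) in the authors' deposited tables. A distal peak of Igf1 rose by 1.962 in AThi HSCs and by 1.83 in ATlo HSCs, in the authors' deposited tables. The promoter of Mettl3, the m6A methyltransferase, fell by 0.52 in AThi HSCs (adjusted p = 0.0234) by the authors' deposited table. Among 10 other high mobility group genes (65 peaks), 5 were higher and 0 lower in AThi HSCs, and 4 higher and 2 lower in ATlo HSCs, with Tox up by 1.43 and 1.48 at a distal peak in AThi and ATlo HSCs in the authors' deposited tables.

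The median log2 change of each list lay near that of all peaks, between -0.094 and 0.022 in AThi HSCs and between -0.097 and 0.020 in ATlo HSCs against young HSCs, in the authors' deposited tables. The shares of higher calls ran from 4.00% to 9.57% in AThi HSCs and from 2.27% to 11.7% in ATlo HSCs, around the background of 7.57% and 6.88%. The shares of lower calls ran from 0% to 5.07% in AThi HSCs, against a background of 2.74%, and from 3.08% to 6.82% in ATlo HSCs, where all 6 lists lay above the 2.54% of all peaks. These ATlo shares rest on 1 to 7 peaks per list, and some genes stand in 2 lists. The peaks include strong promoters such as those of Tut4 and Tut7, a class with an ATlo median of -0.30, so no common pattern of the lists is shown. No list had a peak that passed between AThi and ATlo HSCs.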

How the data were processed

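ATAC-seq of HSCs was read from 3 deposited tables of the authors' comparisons over the same 94410 peaks. Per the submitters' processing notes, DESeq2, featureCounts, ChIPseeker, MACS2, BWA, cutadapt and Trim Galore were used, with no version or setting. A shift of reads for the transposase and the treatment of duplicates, which can move and rescale peaks, were not described there. The authors' mean normalised count per peak is a signal value, and the authors' log2 changes and their SEs are DESeq2 estimates. The authors' Wald score is the change over its SE, and the deposited p-values were taken unaltered, both raw and adjusted (Benjamini-Hochberg, missing for 1831 peaks). There were 0 columns of values per library, so the planned count model was not run.

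The 3 changes add up to within 1.02e-14, so all tables come from 1 fit. A negative binomial fit with group alone was set against the deposited SEs at 58094 peaks with a level of at least 20, for 3 to 6 young libraries; at the 3 strongest peaks the AThi variance was 1.334 to 1.336 times the young one, against 1.333 for 4 young libraries and 1.667 for 5. Group levels, reads per library and the Wald test of the mean of both old fractions against young HSCs (Benjamini-Hochberg over all peaks) follow from that fit, and the calculation was tested on simulated data. The simulated libraries were independent, 4 of them young, with known dispersions and with neither pairs nor a day effect. That check therefore does not cover the pairing of O1 to O3, the day or estimated dispersions. Intervals are 95% Wald intervals.

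The notes name GRCm38 and mm39. Coordinates are given as mm39, 1-based, as only 273 of 20791 matched genes end at the same base in RefSeq GRCm38.p6, which was used for names (20791 of 20810 identifiers) and sequences. The peaks named are each member's promoter peak of highest mean level over libraries, all that passed, and the peak of smallest p for a gene without one. From the lists, examples were taken from the 2 called peaks of smallest p in each direction. Body peaks were chosen after their values were seen. The members and lists were chosen with earlier results of these data known. Analyses used Python 3.11.15, pandas 2.3.3, numpy 2.4.6 and scipy 1.17.1.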

Additional observations from a re-analysis of the deposited data

How the results depend on the processing

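The counts of member peaks that passed were recomputed under 9 other settings. Apart from the shifts of a median to 0, the share of all peaks that passed is not given for these settings. The counts alone therefore do not show whether the members' excess over the background holds. With an adjusted p under 0.01, 1 peak was lower in ATlo HSCs and 1 for the mean of both old fractions, against 2 and 2. With peaks of a level of at least 10 only, the lower counts were again 1 and 1. With the strongest promoters' median at 0, 10 peaks were higher in ATlo HSCs (16.8% of all peaks), 1 was lower (0.334%), and 1 was lower for the mean of both (1.29%). With promoter peaks only, 3 were higher in ATlo HSCs and 5 for the mean of both, and with at least 2-fold changes 5 were higher in AThi HSCs, 1 was lower in ATlo HSCs, and 4 were higher and 1 lower for the mean of both. The lower count changes by construction at the stricter threshold, where the Lin28a peak upstream of the start site has an adjusted p of 0.023 (0.0183 for the mean of both), and at the level minimum, since that peak's mean level is 9.38. Promoter peaks only are fewer by construction, and the 2-fold minimum leaves out smaller changes. With the strongest promoters' median at 0, every change moves up by 1 shift, and the lower peak that no longer passes is the Hmga1 start site.

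Of 556 recomputed values of the 16 named peaks, 528 kept direction and side of the threshold, 16 no longer passed, 7 newly passed and 5 turned direction. Only the shifts of a median to 0 alter a log2 change, so no direction could turn under the other settings. The 556 also include the AThi against ATlo values, where no member peak passed the test. Most of the 528 were therefore fixed by construction and are no measure of robustness. All 5 that turned did so with the strongest promoters' median at 0. They were the Msi2 start site, at 0.11 in AThi HSCs, 0.18 in ATlo HSCs, 0.14 for the mean of both and -0.081 for AThi against ATlo, and the Igf2bp3 promoter peak 2567 bases upstream, at 0.055 in ATlo HSCs. The Hmga1 start site kept its direction but no longer passed there (ATlo -0.30, adjusted p = 0.173; mean of both -0.22, adjusted p = 0.248).

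No paired analysis was possible because the tables hold no values per library, so the pairs O1 to O3 could not enter a fit. For the same reason other size factors or count filters and fits that leave out a library were not run. Depth limits the weak peaks most: where an old library holds under 10 reads, as at the Lin28a peak upstream of the start site, intervals span several-fold changes.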
